A study of Homo sapiens with 16 samples.

Results

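By RefSeq protein-coding genes per callable Mb, chromosome 13 ranked lowest, with 338 genes or 3.57 per callable Mb against 7.25 over the genome. Callable sequence is that in which the lists hold a region, only 1.8 Mb on Y, so the rank does not place Y. The members here are the TOP2A cleavage complex regions (CCRs) that the authors listed on chromosome 13 (hg38), counted in 1 Mb windows by the midpoint of each region. They number 43724 of 1469949 regions in 5 lists. The etoposide list held 5940 of 182582 regions on chromosome 13, the genistein list 13817 of 415215, the mitoxantrone list 6707 of 202865, the p-benzoquinone list 8172 of 359249 and the DMSO list 9088 of 310038. The 13q31 segment, chr13:80000000-95000000, held 5749 of the 43724 regions. It is sparse in genes, with 12 protein-coding genes, or 0.805 per Mb, against 4.08 per Mb on the rest of chromosome 13.

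Human K562 cells, a leukaemia line, were exposed to a TOP2 poison, TOP2A was captured with an antibody from sonicated lysates, and the DNA it held was released and sequenced. Cells received etoposide (25 µM for 1 h), genistein (50 µM for 1 h), mitoxantrone (2 µM for 1 h), p-benzoquinone (8 µM for 4 h) or DMSO alone (1 or 4 h), and all cultures carried DMSO at 0.05%. The labels give 16 libraries, of which 3 etoposide, 2 genistein, 1 mitoxantrone, 2 p-benzoquinone and 3 DMSO libraries were amplified and belong to the lists, and the authors merged the libraries of a treatment into 1 list. Each treatment therefore has 1 value with no replicate, no test between treatments is given, and every interval is an exact 95% interval that covers counting error only.

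TOP2A is a type II topoisomerase: it cuts both strands of a DNA segment, passes another segment through the gap and closes the cut again. While the cut is open the enzyme is bound covalently to the DNA ends, and this intermediate is the cleavage complex. Etoposide, mitoxantrone and genistein hold the complex open, and p-benzoquinone, a metabolite of benzene, is a reactive compound that modifies the enzyme. Long gene-poor stretches such as 13q31 are mostly late-replicating, compact chromatin in many cell types. K562 cells are known to carry extra copies of the fused BCR and ABL1 genes, and gains of DNA at 13q31 have been described in the line.

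The one cancer gene of wide interest in the segment is MIR17HG, which encodes the miR-17 to miR-92a cluster, a group of miRNAs that promote growth in blood cancers. The mature sequences most often studied are shown because they are what this locus makes and because the nearest CCRs are placed relative to them below. They are RefSeq sequences of GRCh38.p14 on the plus strand of chromosome 13 between positions 91350618 and 91351382, written 5′ to 3′ with the seed (bases 2 to 8) in capitals.
hsa-miR-17-5p: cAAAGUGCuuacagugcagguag
hsa-miR-20a-5p: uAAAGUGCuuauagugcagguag
hsa-miR-18a-5p: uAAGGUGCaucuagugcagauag
hsa-miR-19a-3p: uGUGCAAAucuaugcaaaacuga
hsa-miR-19b-3p: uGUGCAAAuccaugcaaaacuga
hsa-miR-92a-3p: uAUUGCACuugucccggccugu
miR-17-5p and miR-20a-5p share 1 seed, and miR-19a-3p and miR-19b-3p share another, whereas miR-18a-5p and miR-92a-3p each have a seed of their own among these 6.

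No CCR of any of the 5 lists lay in MIR17HG with 2 kb on each side. The nearest CCR to the miRNA cluster was 39305 bp away in the etoposide list, 10042 bp in the genistein list, 10001 bp in the mitoxantrone list, 7759 bp in the p-benzoquinone list and 6384 bp in the DMSO list. Within 500 kb of the cluster there were 27 etoposide, 62 genistein, 29 mitoxantrone, 80 p-benzoquinone and 57 DMSO regions. MIR17HG with its flanks spans 10.9 kb, over which the density at 90 to 92 Mb would give 0.349 etoposide, 0.871 genistein, 0.381 mitoxantrone, 0.893 p-benzoquinone and 0.610 DMSO regions, so a count of 0 in a list is no sign of depletion at this depth.

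Promoter windows of chromosome 13 were set against the lists, with no other sequence of that length beside them. Of 892 RefSeq promoter windows (250 bases before to 50 after a start), 24 overlapped an etoposide region, 52 a genistein region, 23 a mitoxantrone region, 38 a p-benzoquinone region and 38 a DMSO region. Together 151 windows overlapped a region of some list, 21 overlapped 2 or more lists, 3 overlapped 3 lists and none overlapped 4. The 151 windows had a median GC content of 46.7%, against 53.3% over all 892. The lists differed in this. The median was 42.7% for windows with an etoposide region, 43.3% for genistein and 46.7% for mitoxantrone. It was 51.2% for p-benzoquinone and 50.5% for DMSO, closer to that of all windows. Of the 3 windows with 3 lists, both that belong to a protein-coding gene are overlapping windows of CBY2, and the last is a window of the non-coding LOC124903221 that the p-benzoquinone region touched by 1 base. The downstream CBY2 window is printed because it is the promoter where 3 poisons met, chr13:45702219-45702518, plus strand, GRCh38.p14, with the 178 bases that the etoposide, genistein and p-benzoquinone regions all cover in capitals.
CBY2: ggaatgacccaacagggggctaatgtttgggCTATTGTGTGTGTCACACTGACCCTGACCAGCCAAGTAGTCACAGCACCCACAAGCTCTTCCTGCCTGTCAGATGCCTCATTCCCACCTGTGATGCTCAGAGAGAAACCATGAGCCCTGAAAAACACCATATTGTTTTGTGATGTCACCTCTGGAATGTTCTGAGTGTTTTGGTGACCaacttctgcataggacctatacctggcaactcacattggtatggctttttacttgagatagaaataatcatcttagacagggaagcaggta
The regions there had values of 11.18 in the etoposide list, 6.78 in the genistein list and 14.0 in the p-benzoquinone list, while the mitoxantrone and DMSO lists had none there. The value is the authors' own score for a region and has no stated unit. It is used to rank regions within a list, and its levels are not compared between lists.

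Chromosome 13 held fewer CCRs per Mb than the genome in each of the 5 lists, and by far the fewest, relative to the genome, in the p-benzoquinone list. The relative density, regions per callable Mb on chromosome 13 over the same for the whole list, was 0.948 (0.925 to 0.972) in the etoposide list, 0.970 (0.954 to 0.986) in the genistein list and 0.964 (0.941 to 0.987) in the mitoxantrone list. It was 0.663 (0.649 to 0.677) for p-benzoquinone and 0.854 (0.837 to 0.872) for DMSO. Ranked from the highest of 24 chromosomes, chromosome 13 came 17th for etoposide, 14th for genistein, 17th for mitoxantrone, and 22nd for both p-benzoquinone and DMSO, where X and Y alone were lower. The gene-rich chromosomes 19 and 22 were the lowest, after Y, in the etoposide, genistein and mitoxantrone lists. At a minimum value of 4 the etoposide density was 1.01, on the other side of the genome mean.

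Set against DMSO, the share of a list's regions on chromosome 13 was 1.11 times as large in the etoposide list (1.07 to 1.15), 1.14 times in the genistein list (1.11 to 1.17) and 1.13 times in the mitoxantrone list (1.09 to 1.16). For p-benzoquinone it was 0.776 times as large (0.753 to 0.800). These comparisons share the DMSO list. The doses and times differ between poisons, and the DMSO list mixes 1 h and 4 h exposures, so the poisons are given side by side and are not compared with each other.

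The lists mix libraries whose values come in different steps, and the differences between lists on chromosome 13 went with this mix. Low values of a list are multiples of a few steps, as read numbers scaled by library would be, and a step identifies a part of the list that comes from 1 library or from several with the same step. The steps fell into a coarse class, between 0.324 and 0.358, and a fine class, between 0.228 and 0.246. The etoposide list held 1 coarse and 2 fine parts, the genistein list 2 coarse parts, the mitoxantrone list 1 coarse part, the p-benzoquinone list 2 fine parts, and the DMSO list 1 coarse and 1 fine part. In every list the number of coarse parts equals the number of its amplified libraries with a 4 after "amp" in the title. Lists with fine parts are those with libraries that have K562 in that place. Their numbers do not always match, as the DMSO list has 2 such libraries and 1 fine part. How many steps to seek in each list was a manual choice. In lists with parts of 1 class the match in number can follow from that choice alone, so it carries no test. The labels do not say which library gave which part, or what the 4 stands for.

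Within a step class the relative density of chromosome 13 varied little between treatments. The coarse parts stood at 1.06 for etoposide, 1.02 and 0.973 for genistein, 1.01 for mitoxantrone and 0.998 for DMSO. The fine parts stood at 0.693 and 0.685 for etoposide, 0.658 and 0.676 for p-benzoquinone, and 0.663 for DMSO. The lowest coarse part was thus above the highest fine part, and the 2 classes of the DMSO list alone differed by a factor of 0.665 (0.634 to 0.697, fine over coarse).

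**Figure D1:**
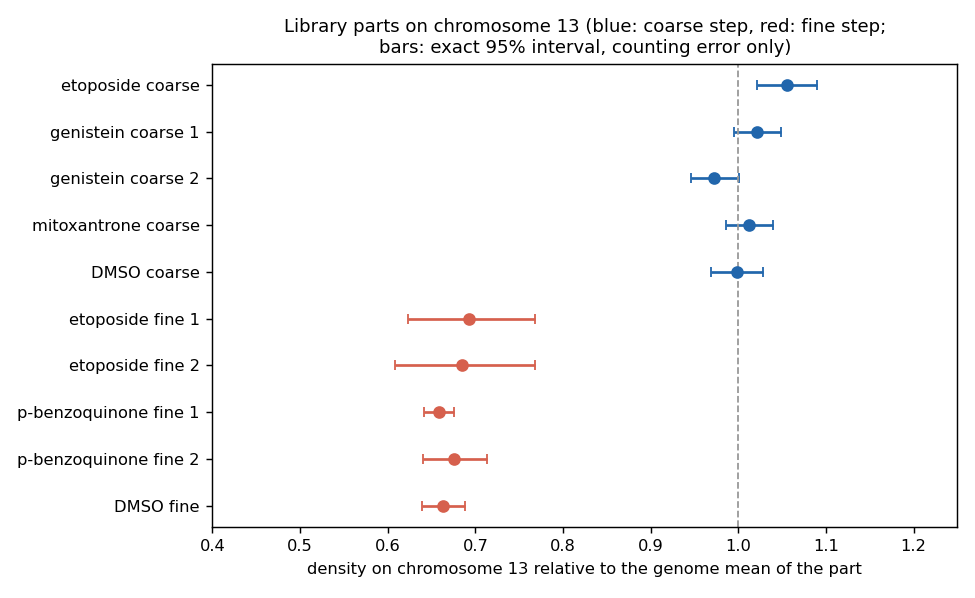
Relative density of CCRs on chromosome 13 in each library part (horizontal axis, 1 is the genome mean of that part), with exact 95% intervals for counting error. The 5 coarse parts (blue) lie between 0.973 and 1.06, and the 5 fine parts (red) between 0.658 and 0.693, with treated and DMSO parts side by side in each class.

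Against the DMSO part of the same class, the chromosome 13 share was 1.06 times as large in the etoposide coarse part (1.01 to 1.11), and the ratio was 1.05 (0.933 to 1.17) and 1.03 (0.910 to 1.17) in its fine parts. It was 1.02 (0.983 to 1.07) and 0.975 (0.935 to 1.02) for the genistein parts and 1.01 (0.975 to 1.06) for mitoxantrone. For p-benzoquinone it was 0.993 (0.949 to 1.04) and 1.02 (0.954 to 1.09). Of these 8 ratios only that of the etoposide coarse part had an interval that left out 1, and the low p-benzoquinone share was not seen against DMSO fine values. Coarse components made up 60.6% of the assigned DMSO components on chromosome 13 and 50.5% over the genome, and 84.8% and 78.5% in the etoposide list. A part leaves out values that lie on several steps or on none, between 17.3% and 32.4% of a list.

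Values on chromosome 13 were close to those of the whole list for etoposide and p-benzoquinone, lower for genistein and mitoxantrone, and higher for DMSO. The median was 7.80 on chromosome 13 against 7.79 over the genome for etoposide and 11.86 against 12.91 for genistein. It was 12.3 against 13.28 for mitoxantrone, 4.81 against 4.83 for p-benzoquinone and 7.1 against 6.24 for DMSO. Within its parts DMSO was not higher: the median was 9.13 against 9.8 in the coarse part and 2.77 against 2.78 in the fine part, beside the larger coarse share on chromosome 13 given above. Of the 1000 highest values of a list, chromosome 13 held 30 in the etoposide, 12 in the genistein, 25 in the mitoxantrone, 11 in the p-benzoquinone and 24 in the DMSO list. Of all regions of these lists, 3.25% of etoposide, 3.33% of genistein, 3.31% of mitoxantrone, 2.27% of p-benzoquinone and 2.93% of DMSO regions were on chromosome 13. All 5 lists thus had a smaller share of the highest values there than of regions. The gap was widest for genistein and p-benzoquinone, and no interval was computed for it.

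Along the chromosome the lists differed in how even they were. Among the 95 windows with enough callable sequence, the etoposide list had between 28 and 90 regions per window with a median of 62, the genistein list between 66 and 186 with a median of 148, and the mitoxantrone list between 35 and 97 with a median of 72. The p-benzoquinone list had between 32 and 154 with a median of 85, and the DMSO list between 51 and 140 with a median of 94. The 90th percentile of windows was 1.62 times the 10th for etoposide, 1.42 times for genistein, 1.56 times for mitoxantrone, 2.39 times for p-benzoquinone and 1.68 times for DMSO. The p-benzoquinone list thus had the widest spread. Counting spread alone is smaller in lists with more regions per window, so the order of the other lists is not read from these ratios.

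The windows of highest density lay outside 13q31 and differed from list to list. They were 96 to 97 Mb for etoposide with 90 regions, 53 to 54 Mb for genistein with 186, 102 to 103 Mb for mitoxantrone with 97, 110 to 111 Mb for p-benzoquinone with 154 and 30 to 31 Mb for DMSO with 140. The windows of lowest density lay inside 13q31 in 4 lists: 91 to 92 Mb for etoposide with 29 regions and for genistein with 66, and 90 to 91 Mb for mitoxantrone with 35 and for DMSO with 51. For p-benzoquinone the lowest was 63 to 64 Mb with 32 regions.

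**Figure D2:**
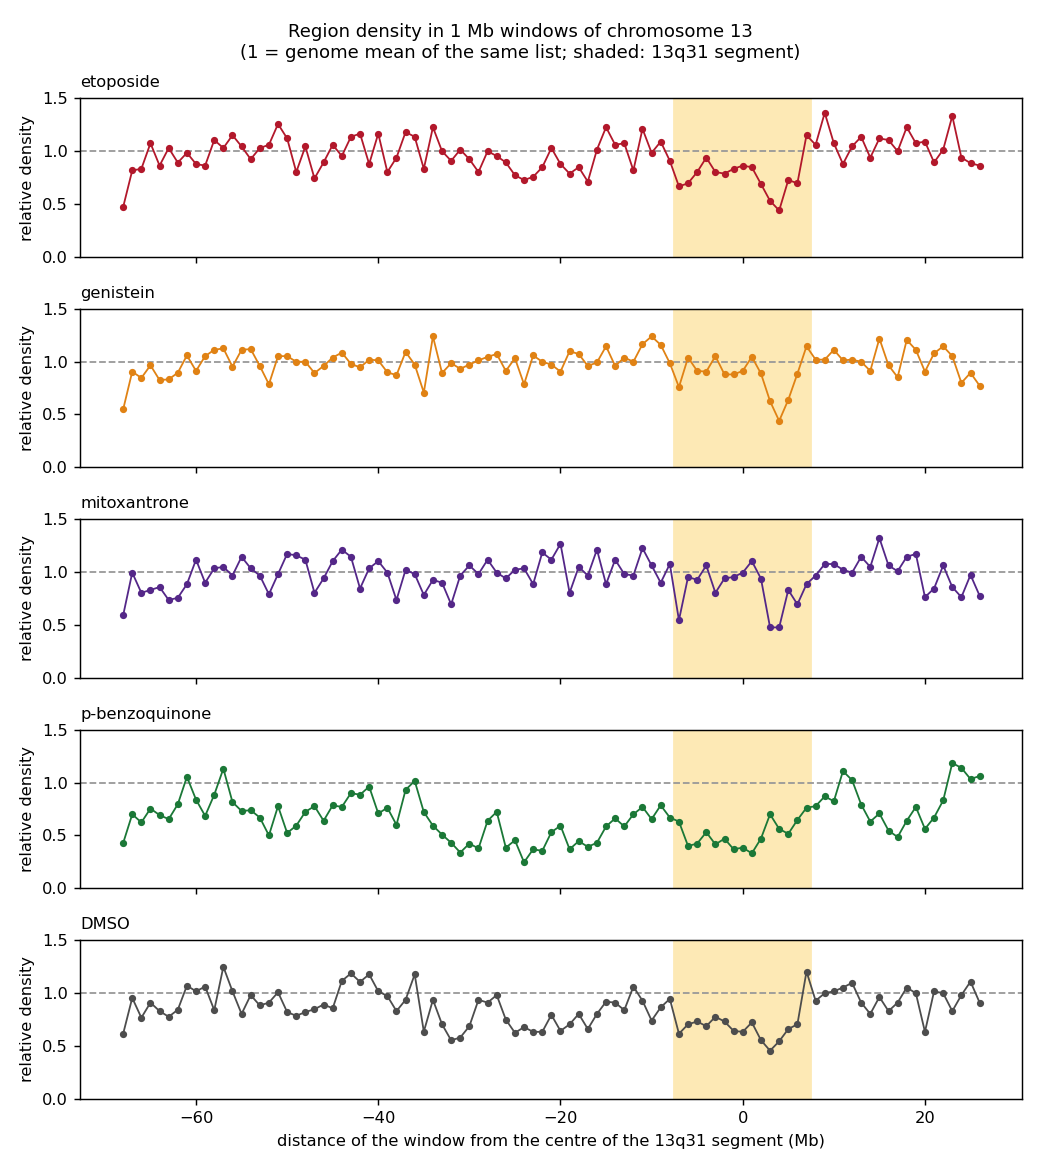
Relative density of CCRs in 95 windows of 1 Mb along chromosome 13, by list (vertical axis, 1 is the genome mean of the list), against distance from the centre of the 13q31 segment in Mb. The dip just right of the segment's centre reaches 0.439 in the etoposide list, 0.439 in the genistein list, 0.477 in the mitoxantrone list and 0.454 in the DMSO list, whereas the p-benzoquinone list has its lowest point, 0.246, left of the segment.

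Window by window, the p-benzoquinone list was the one that was often below DMSO. With each list scaled to its size, 29 of the 95 windows were past 1.5-fold lower than DMSO for p-benzoquinone, against 6.71% of windows over the genome, and 1 was past 1.5-fold higher, against 2.06%. For etoposide 4 windows were past 1.5-fold higher (1.81% over the genome) and none lower (1.66%). For genistein 8 were higher (3.5%) and none lower (4.04%), and for mitoxantrone 11 were higher (4.59%) and none lower (4.33%). The largest departure in each direction was at 63 to 64 Mb, where p-benzoquinone had 32 regions against 76 for DMSO, 0.367-fold, and at 67 to 68 Mb, where mitoxantrone had 93 against 72, 1.97-fold.

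Between parts of the same step class fewer windows passed for genistein, mitoxantrone and p-benzoquinone, and 5 in place of 4 passed for etoposide. The p-benzoquinone fine parts had 3 windows past 1.5-fold lower (1.27% over the genome) and 4 higher (2.54%) than the DMSO fine part. In the coarse parts etoposide had 3 higher (3.45%) and 2 lower (4.03%), genistein 1 higher (1.7%) and 1 lower (1.7%), and mitoxantrone 1 higher (2.61%) and 1 lower (2.06%). On this scale 1 of the 95 windows is 1.05%, so the counts amount to between 1.05% and 4.21% of the windows.

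Gene number separated the windows in the p-benzoquinone and DMSO lists but not in the genistein and mitoxantrone lists. The 95 windows comprised 21 with 0 protein-coding genes, 35 with 1 to 3 and 39 with 4 or more, each gene counted at its midpoint. In p-benzoquinone the median relative density was 0.423 in windows with 0 genes, 0.638 with 1 to 3 genes and 0.761 with 4 or more. In DMSO it was 0.659, 0.864 and 0.936 in the same order. In genistein it was 0.965, 0.978 and 1.01, in mitoxantrone 0.953, 1.05 and 0.973, and in etoposide 0.802, 1.01 and 0.938. Across the 95 windows Spearman's rho between relative density and gene number was 0.258 for etoposide, 0.041 for genistein, 0.015 for mitoxantrone, 0.625 for p-benzoquinone and 0.486 for DMSO. These correlations describe windows of 1 list, which share its libraries and depth.

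Here too the pattern went with the step class. In the DMSO fine part the medians were 0.441, 0.617 and 0.815 from 0 genes to 4 or more, and in the DMSO coarse part 0.927, 1.01 and 1.05. The p-benzoquinone fine parts ran from 0.439 and 0.392 with 0 genes to 0.732 and 0.784 with 4 or more. The coarse parts of genistein, mitoxantrone and etoposide stayed between 0.913 and 1.13 in every gene class. In windows with 0 genes the etoposide fine parts had a median of only 3 and 2 components per window, against 36 in its coarse part.

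**Figure D3:**
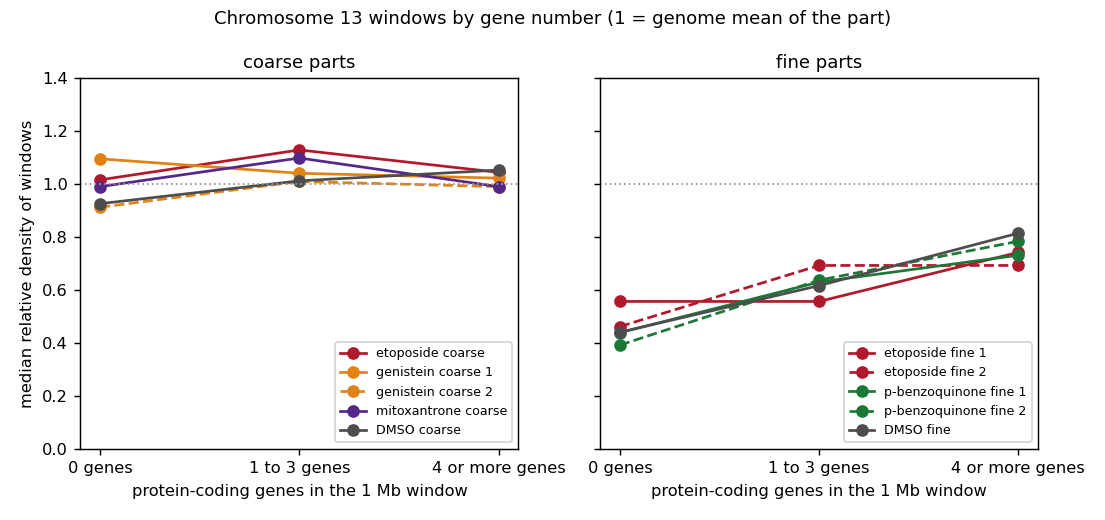
Median relative density of chromosome 13 windows with 0 (n = 21), 1 to 3 (n = 35) and 4 or more (n = 39) protein-coding genes, by library part; coarse parts on the left and fine parts on the right, with the dashed line for the second part of a list. The coarse parts are flat between 0.913 and 1.13, and the fine parts of p-benzoquinone and DMSO climb with gene number from at most 0.441 to at least 0.732.

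The 13q31 segment had fewer CCRs per Mb than the rest of chromosome 13 in each of the 5 lists. The etoposide list had 753 regions or 50.5 per Mb in the segment against 64.9 per Mb on the rest, a ratio of 0.778 (0.720 to 0.840). The ratio was 0.876 (0.834 to 0.919) for genistein with 1940 regions in the segment, 0.849 (0.791 to 0.911) for mitoxantrone with 917, 0.733 (0.685 to 0.784) for p-benzoquinone with 983 and 0.782 (0.734 to 0.831) for DMSO with 1156. The dip was thus present in the DMSO list as well. Single regions in the segment were about as strong as elsewhere on the chromosome: the median value in the segment over that on the rest was 1 for etoposide, 0.971 for genistein, 0.975 for mitoxantrone, 0.952 for p-benzoquinone and 1 for DMSO.

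The edges of the segment fall at different levels. At the left edge the windows just inside (80 to 81 Mb) and just outside (79 to 80 Mb) held 44 and 60 etoposide, 114 and 148 genistein, 40 and 79 mitoxantrone, 82 and 87 p-benzoquinone, and 69 and 106 DMSO regions. At the right edge the windows just inside (94 to 95 Mb) and just outside (95 to 96 Mb) held 76 and 70 etoposide, 172 and 153 genistein, 65 and 71 mitoxantrone, 99 and 101 p-benzoquinone, and 135 and 104 DMSO regions. The number was thus lower just inside the left edge in 4 lists, while the p-benzoquinone list dropped 1 window further in, to 52 regions at 81 to 82 Mb. At the right edge the number was already back inside the segment in the etoposide, genistein, p-benzoquinone and DMSO lists, in the window with 4 protein-coding genes. The mitoxantrone list stayed lower there. Its density from 93 to 95 Mb was 0.800 (0.660 to 0.962) times that on the rest of chromosome 13.

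The segment is not uniform, and 2 stretches in it differed. Both were picked after the window values were seen, the first for its low region number and high input, so their values describe them and carry no test. From 90 to 92 Mb, which includes MIR17HG and the start of GPC5, the density over the rest of chromosome 13 was 0.493 (0.379 to 0.631) for etoposide, 0.538 (0.458 to 0.629) in the genistein list, 0.483 (0.376 to 0.611) for mitoxantrone and 0.564 (0.464 to 0.680) for DMSO. For p-benzoquinone it was 0.911 (0.776 to 1.06), an interval that held 1. From 82 to 89 Mb, which holds the SLITRK genes, the order was the other way round. The density was 0.603 (0.543 to 0.669) for p-benzoquinone, 0.854 (0.768 to 0.947) for etoposide, 0.950 (0.890 to 1.01) in the genistein list, 0.982 (0.894 to 1.08) for mitoxantrone and 0.794 (0.727 to 0.866) for DMSO. At 90 to 91 Mb p-benzoquinone had 91 regions against 51 for DMSO, and this 1.53-fold excess was its only window past 1.5-fold higher.

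Both stretches also split by step class, with DMSO in each class. From 90 to 92 Mb the coarse parts stood at 0.336 for etoposide, 0.397 and 0.535 for genistein, 0.417 for mitoxantrone and 0.346 for DMSO, all with intervals below 1. The fine parts stood at 1.83 (0.991 to 3.12) and 1.12 (0.445 to 2.34) for etoposide, which rest on 14 and 7 components, at 0.861 and 0.991 for p-benzoquinone, and at 0.921 (0.698 to 1.20) for DMSO. From 82 to 89 Mb the coarse parts were between 0.849 and 1.07 and the fine parts between 0.487 and 0.609. The etoposide fine parts, at 0.487 (0.256 to 0.845) and 0.594 (0.312 to 1.03), rest on 13 components each there, and the second interval held 1. The DMSO list thus held both patterns, at 0.346 in its coarse and 0.921 in its fine part over the first stretch, and at 0.916 and 0.604 over the second.

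**Figure D4:**
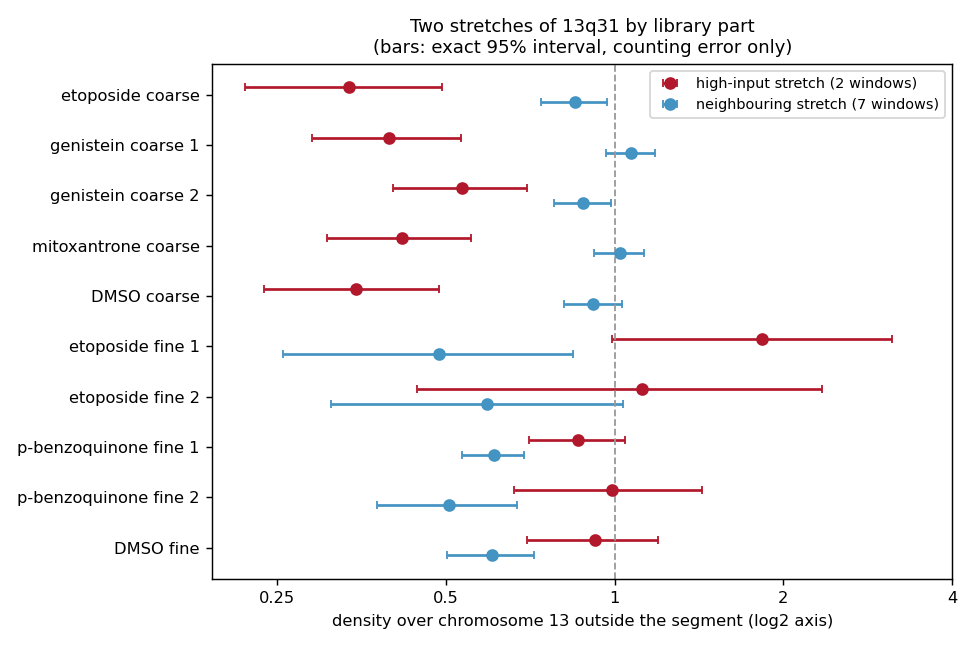
Density of library parts in 2 stretches of the 13q31 segment over the density on chromosome 13 outside the segment (log2 axis, exact 95% intervals for counting error). In the stretch of 2 windows with the highest input (red) the 5 coarse parts lie between 0.336 and 0.535, and in the neighbouring stretch of 7 windows (blue) the 5 fine parts lie between 0.487 and 0.609.

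The stretch at 90 to 92 Mb also stood out in the input signal of the mitoxantrone list, the one list that carries such a column. Input is the signal of unselected DNA at each listed region, on the authors' scale. The lowest deposited log2 ratio of treated over input signal was 4.01 on chromosome 13 and 4.00 over the genome. On chromosome 13 the mean input was 0.341 (0.334 to 0.348), against 0.453 (0.451 to 0.454) over the genome. Among the 24 chromosomes only Y was lower, at 0.2 on 7 regions, and X at 0.343 and chromosome 14 at 0.362 came next above. Input was 0 at 31.2% of chromosome 13 regions, against 22.5% over the genome.

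In the segment the mean input was 0.360 (0.342 to 0.380), against 0.338 (0.331 to 0.345) on the rest of chromosome 13, yet a larger share of its regions had none, 33.7% against 30.8%. This mean comes from a few windows. The 4 windows of highest input on chromosome 13 all lie in 13q31: 90 to 91 Mb at 0.768, 91 to 92 Mb at 0.558, 89 to 90 Mb at 0.546 and 80 to 81 Mb at 0.518. The 80 windows outside the segment lay between 0.218 and 0.451 with a median of 0.337. The window at 90 to 91 Mb ranked 13th of 2768 windows of the genome, and the next ranked 434th. Without these 4 windows the mean input of the segment was 0.308 (0.289 to 0.328), below the rest of the chromosome.

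**Figure D5:**
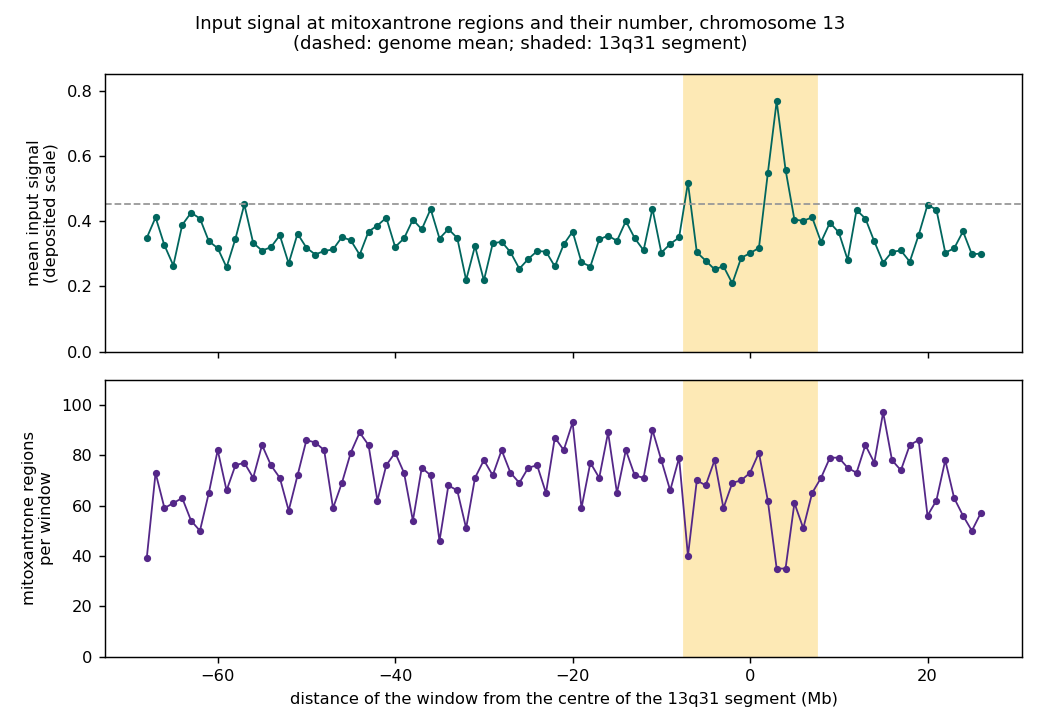
Mean input signal at mitoxantrone regions (top, authors' scale, dashed line at the genome mean of 0.453) and number of mitoxantrone regions (bottom) in 1 Mb windows along chromosome 13, against distance from the centre of the 13q31 segment. The input peak of 0.768 and its neighbour at 0.558 coincide with 35 mitoxantrone regions in each of these windows, the lowest numbers among the 95 windows with at least 5 callable bins.

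In 3 of these 4 windows the region number was low too. The mitoxantrone list had 35 regions at 90 to 91 Mb, 35 at 91 to 92 Mb, 62 at 89 to 90 Mb and 40 at 80 to 81 Mb, against a chromosome median of 72. The regions listed at 90 to 92 Mb had a higher median value than the rest of chromosome 13 for mitoxantrone, 17.2 against 12.3, for genistein, 15.33 against 12.18, and for p-benzoquinone, 5.31 against 4.81. For etoposide it was lower, 4.74 against 7.8, and so it was for DMSO, 4.79 against 7.1. Within parts these gaps were smaller: 6.95 against 7.12 in the etoposide coarse part, 2.28 against 2.51 and 2.46 against 2.46 in its fine parts, 7.78 against 9.13 in the DMSO coarse part and 2.54 against 2.77 in the DMSO fine part. Without the 4 windows the segment's density over the rest of the chromosome was 0.846 (0.776 to 0.920) for etoposide, 0.945 (0.896 to 0.997) in the genistein list, 0.935 (0.865 to 1.01) for mitoxantrone, 0.689 (0.636 to 0.745) for p-benzoquinone and 0.842 (0.785 to 0.901) for DMSO. Across the 95 windows Pearson's r between input and mitoxantrone region number was -0.377 and Spearman's rho -0.171. Listed mitoxantrone regions with input above 0 had a log2 ratio of at least 4.00, so higher input required a higher value for listing. The mitoxantrone values and region numbers in high-input windows, and these correlations, are thus not independent of input and carry no test. The windows share 1 treated library and 1 input, and the part of copy number in these region numbers was not tested.

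BCR, on chromosome 22, gives a place in the same libraries where K562 is known to have extra copies. Over BCR with 0.5 Mb on each side the mean input was 0.555 (0.362 to 0.813) at 11 mitoxantrone regions. This interval held the genome mean of 0.453. Region density relative to the genome was 0.359 (0.237 to 0.523) with etoposide, 0.146 (0.0946 to 0.216) with genistein, 0.132 (0.0657 to 0.236) with mitoxantrone, 0.487 (0.381 to 0.613) with p-benzoquinone and 0.376 (0.277 to 0.499) with DMSO there. With these values the label K562 is set beside what the line is known to carry, and no marker of expression could be read from lists of regions.

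The strongest regions of chromosome 13 lay in different places in the 5 lists. They were chr13:63139170-63139320 in the etoposide list with a value of 96.88, chr13:34389857-34389997 in the non-coding LINC02343 in the genistein list with 149.52, and chr13:106596140-106596495 in the mitoxantrone list with 154.94. The p-benzoquinone maximum was chr13:44388343-44388684 in SERP2 with 56.79, and the DMSO maximum was chr13:104173505-104173687 with 100.19. None of them lay in 13q31.

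Inside 13q31 the strongest regions of 3 poisons lay close together at the 5′ part of GPC5. They were chr13:91452374-91452587 in the etoposide list with 58.77, chr13:91440045-91440305 in the genistein list with 121.7 and chr13:91446385-91446787 in the p-benzoquinone list with 53.15. The genistein and p-benzoquinone regions were also the second strongest of the whole chromosome in their lists. The mitoxantrone maximum of the segment was chr13:94502802-94502960 in DCT, the dopachrome tautomerase of melanin synthesis, with 81.39. The DMSO maximum was chr13:89927334-89927559, outside protein-coding genes, with 81.55. These 3 poison regions do not overlap each other, so they share a neighbourhood and no bases.

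The 2 long genes of 13q31 were below the genome mean in all 5 lists. GPC5, a glypican of the cell surface, had 61 etoposide, 123 genistein, 75 mitoxantrone, 96 p-benzoquinone and 98 DMSO regions over its body with 2 kb on each side. Per length this was 0.627 (0.479 to 0.805), 0.556 (0.462 to 0.663), 0.694 (0.546 to 0.869), 0.501 (0.406 to 0.612) and 0.593 (0.481 to 0.723) times the genome mean of the list, in the same order. All 5 intervals were below 1, DMSO included. Its neighbour GPC6, another glypican, had 69 etoposide, 167 genistein, 79 mitoxantrone, 113 p-benzoquinone and 108 DMSO regions. On the same scale it stood at 0.873, 0.930, 0.900, 0.727 and 0.805, and only the p-benzoquinone and DMSO intervals left out 1. These 2 intervals, 0.599 to 0.874 and 0.660 to 0.972, held the levels of chromosome 13 as a whole, 0.663 for p-benzoquinone and 0.854 for DMSO.

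The other 13q31 genes are short and held few regions. SPRY2, an inhibitor of receptor tyrosine kinase signalling, had 0, 1, 0, 3 and 1 regions in the etoposide, genistein, mitoxantrone, p-benzoquinone and DMSO lists. SLITRK1, SLITRK5 and SLITRK6, membrane proteins of neurons, had at most 4 regions in a list, the 4 being DMSO regions at SLITRK6. DCT had 6, 17, 6, 8 and 18 regions in the order used for SPRY2, TGDS had 4, 6, 5, 1 and 4, and GPR180 had 3, 5, 0, 6 and 7. SOX21, a transcription factor of the nervous system, had at most 2 regions in a list. LOC124900338 and LOC124903229, the remaining protein-coding entries, had at most 7. Over the 12 genes and MIR17HG the median density relative to the genome was 0.627 for etoposide, 0.727 for genistein, 0.694 for mitoxantrone, 0.528 for p-benzoquinone and 0.961 for DMSO, against 0.963, 0.935, 0.910, 0.694 and 0.901 over the 338 protein-coding genes of the chromosome.

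Genes of blood cancer, DNA repair and other known roles on chromosome 13 showed no common direction. Of 23 such genes, 12 were above the genome mean in the etoposide list, 12 in the genistein, 7 in the mitoxantrone, 5 in the p-benzoquinone and 8 in the DMSO list. Over the 338 protein-coding genes the numbers above it were 156, 147, 147, 94 and 135 in the same order. Most held too few regions to be told from the mean.

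RB1, the retinoblastoma tumour suppressor, had 3 etoposide regions, or 0.249 (0.0514 to 0.728) of the genome mean per length. It had 26 genistein, 7 mitoxantrone, 16 p-benzoquinone and 12 DMSO regions, all 4 with intervals that held 1. ZMYM2, a zinc finger gene fused to FGFR1 in some leukaemias, was low in the etoposide list at 0.330 (0.107 to 0.770) and in the p-benzoquinone list at 0.369 (0.184 to 0.660), and stood at 0.738 in DMSO. DLEU1, a non-coding gene of the region often deleted in chronic lymphocytic leukaemia, had 44 etoposide regions, or 1.48 (1.07 to 1.98), and stood at 1.07 in DMSO. BRCA2, a tumour suppressor of DNA repair, had 6 etoposide, 12 genistein, 4 mitoxantrone, 7 p-benzoquinone and 7 DMSO regions. FLT3, a receptor kinase of blood progenitors often mutated in acute myeloid leukaemia, had 4 etoposide, 12 genistein, 4 mitoxantrone, 7 p-benzoquinone and 6 DMSO regions. For BRCA2 and FLT3 every interval included 1.

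Near the end of the long arm, each of the collagen IV genes was above the genome mean by its interval in 1 list. COL4A1, a chain of basement membrane collagen, had 23 etoposide, 32 genistein, 6 mitoxantrone, 28 p-benzoquinone and 16 DMSO regions, and its etoposide density was 2.15 (1.36 to 3.22), whereas its mitoxantrone density was 0.504 (0.185 to 1.10). COL4A2, which shares a promoter region with it, had 17, 43, 16, 45 and 22 regions in the same order, and its p-benzoquinone density was 1.65 (1.20 to 2.21). The DMSO densities of the pair were 0.879 and 0.934. Both genes lie in the window at 110 to 111 Mb, which held the most p-benzoquinone regions on the chromosome. ERCC5, a nuclease of nucleotide excision repair, had 7 mitoxantrone regions, or 2.81 (1.13 to 5.78), against 3 etoposide, 4 genistein, 2 p-benzoquinone and 4 DMSO regions. F10, the coagulation factor X gene, stood at 2.17 (1.04 to 3.98) in the genistein list on 10 regions, and GAS6, a ligand of TAM receptors, at 1.94 (1.00 to 3.39) in the p-benzoquinone list on 12. Of the 106 pairs of a known gene and a list with a region, 9 had an interval that left out 1, with no correction for their number. Pairs without a region were given no interval. A gene with 0 regions in a list, such as IRS2 in the p-benzoquinone list, therefore cannot enter this count, however low it is.

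A fixed list of 12 genes, called long here, had low p-benzoquinone densities. It runs from EDNRB (80041 bp) to PCDH9 (927503 bp) and leaves out others such as NALF1 (703987 bp) and MTUS2 (685985 bp). It therefore does not stand for all long genes of the chromosome. In the p-benzoquinone list all 12 long genes were below the genome mean, 8 of them with an interval below 1, where 94 of all 338 genes were above it, and the median was 0.618 against 0.694 over all 338 genes. In DMSO 2 of the 12 were above the mean, against 135 of the 338, with a median of 0.898 against 0.901. The medians were 1.03 for etoposide, 1.02 for genistein and 0.954 for mitoxantrone. DACH1, a transcription cofactor of development, had 30 etoposide, 67 genistein, 37 mitoxantrone, 17 p-benzoquinone and 35 DMSO regions. NBEA, a large scaffold protein of neurons, had 42, 84, 41, 34 and 69 in the same order. PCDH9, a protocadherin of neurons, had 71, 139, 81, 72 and 80. Their p-benzoquinone densities were 0.302, 0.356 and 0.594, against 0.720, 0.837 and 0.765 in DMSO. The p-benzoquinone list holds fine parts only, while the DMSO list holds both classes. Densities by part were not computed for any gene, so treatment and step class cannot be told apart in these gaps. DACH1 and NBEA were the lowest of the 12 in the p-benzoquinone list. At the other end, HS6ST3 stood at 0.908 in p-benzoquinone and 0.970 in DMSO, and PCDH17 at 0.671 and 0.691.

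The 5 protein-coding genes with the most regions per kb, each list scaled to its size, were CHAMP1, OXGR1, CBY2, LOC124903248 and SERTM1, chosen for that value. CHAMP1, a protein of kinetochore attachment, had 3 etoposide, 4 genistein, 3 mitoxantrone, 5 p-benzoquinone and 0 DMSO regions. OXGR1, a receptor for oxoglutarate, had 1, 1, 5, 2 and 1, and CBY2 had 3, 3, 0, 4 and 5 in the same order. All 5 are short genes that reached this rank on 10 to 23 regions in all.

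CCRs recurred between lists less often on chromosome 13 than over the genome. The 5 lists merged into 39307 regions on chromosome 13, of which 367 or 0.934% came from 3 or more lists, against 1.41% over the genome. Of these 31 came from 4 lists and 0 from all 5, which allows a share of up to 0.00763%, and over the genome the 5-list share was 0.00534%. Of the etoposide regions 6.38% on chromosome 13 overlapped a DMSO region, against 8.39% over the genome. For genistein it was 5.28% against 6.79%, for mitoxantrone 6.08% against 7.06% and for p-benzoquinone 6.18% against 7.88%. The exact interval of each of these 4 chromosome 13 shares left out the genome share. Lists with fewer regions per Mb meet less often, and how far that accounts for these shares was not tested.

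Regions from 4 lists made up 0.0789% of the merged regions on chromosome 13, against 0.118% over the genome. In 13q31 they made up 0.0382% of 5237 merged regions. Of the 31 regions from 4 lists, 2 lay in 13q31. One was chr13:88858090-88858300, outside genes, with values of 2.95 in the etoposide, 6.81 in the genistein, 10.7 in the mitoxantrone and 13.19 in the DMSO list. The other was chr13:92615129-92615517 in GPC5, with 7.79 in the genistein, 13.61 in the mitoxantrone, 7.48 in the p-benzoquinone and 2.54 in the DMSO list. Regions that all 4 poisons shared without DMSO were chr13:22211623-22211817 in the non-coding LINC00540, chr13:30279435-30279763 in KATNAL1, chr13:102823966-102824260 in BIVM and chr13:113527196-113527624 in SLC9D1. The LINC00540 region stood at 14.6 in the etoposide list, 16.86 in the genistein list, 20.42 in the mitoxantrone list and 14.49 in the p-benzoquinone list. It was picked out after its values were seen.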

How the data were processed

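The authors deposited 1 union list of regions per treatment on hg38, made from TOP2A-bound DNA of K562 cells. The submitters' processing notes name Bowtie2 2.1.0 and SAMtools 0.1.19. How regions were called is not given in the sources used here. Region scores, as the authors deposited them, have no stated unit, and in the genistein and mitoxantrone lists they are a deposited signal with 1 value per region. The deposited mitoxantrone list also holds an input signal (from which input library is not stated), the log2 of the treated over the input signal, and a p-value where input is 0; the p-value was not used. The mitoxantrone list was tied to its 1 library by treatment, and unamplified libraries were not analysed here. Lists of called regions do not give the depth of a library. PCR copies are not told apart from separate molecules, so intervals cover counting error only.

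Regions on chromosomes 1 to 22, X and Y were kept; 10562 overlapping genistein entries were joined, and a region with several values took the highest. Callable genome was every 100 kb bin that holds a region of some list, 94.8 Mb on chromosome 13 and 2762.9 Mb in all. Windows needed 5 callable bins and, for ratios to DMSO, 20 regions in both lists together; 0.5 was added to both numbers. Library parts were found from multiples of a step among values under 30, within 0.02, with the number of steps per list set by hand. Intervals were Clopper-Pearson, conditional binomial or Poisson. Genes and sequences came from RefSeq GRCh38.p14. Python 3.11.15, numpy 2.4.6, pandas 2.3.3 and scipy 1.17.1 were used, and the scripts were tested on simulated data. Members, gene lists and the segment were chosen with earlier results of these data known. Named genes were the genes of 13q31 with MIR17HG, fixed lists of 23 known and 12 long genes, and the 5 genes with the most regions per kb, each list scaled to its size, among those with at least 10. Alternatives changed the value minimum, covered bases, the joining of entries, bins, segment edges, window size, fold, overlap and library parts.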

Additional observations from a re-analysis of the deposited data

How the results depend on the processing

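Of 116 values recomputed under alternatives, 61 stayed within their interval or within 1.5 times the count, 52 moved and 3 changed sides. A change of side was called only where the main interval left out 1, so values within an interval that held 1 could lie on either side. At a minimum value of 4 the chromosome 13 density crossed to 1.01 for etoposide and was 0.634 for p-benzoquinone and 0.933 for DMSO. With 1 Mb bins it was 0.990 for genistein and 0.872 for DMSO, and by covered bases 0.639 for p-benzoquinone. The share over DMSO was, at a minimum of 4, 1.04 in both the genistein and the mitoxantrone list and 0.680 for p-benzoquinone, and by covered bases 0.740 for p-benzoquinone. Against the DMSO part of the same class it was 1.06, 1.05 and 1.03 for etoposide, 1.02 and, reversed, 0.975 for genistein, 1.01 for mitoxantrone, and 0.993 and, reversed, 1.02 for p-benzoquinone. The 13q31 density over the rest was 0.862 and 0.665 in the etoposide fine parts, 0.831 in the second genistein part, 0.633 in the second p-benzoquinone part and 0.725 in the DMSO fine part, and 0.677 for p-benzoquinone by covered bases. Without the 4 windows of highest input, an alternative added after seeing the data, it was 0.846 for etoposide, 0.945 with genistein, 0.935 for mitoxantrone and 0.842 for DMSO. With means in place of medians the segment's value ratio was 1.01 for genistein and 1.02 for p-benzoquinone, and by medians the input ratio was 1. Windows past 1.5-fold higher than DMSO numbered 2 for etoposide, 3 with genistein, 6 for mitoxantrone and 0 for p-benzoquinone with windows of 2 Mb, and 2, 3, 4 and 2 at a minimum of 4. Lower windows for p-benzoquinone numbered 12 with windows of 2 Mb and 48 at a minimum of 4. At 2-fold none was higher for etoposide, genistein, mitoxantrone or p-benzoquinone (0 each), and 3 were lower for p-benzoquinone. Within a step class, also added after seeing the data, the lower windows were 2 with etoposide, 1 with genistein, 1 with mitoxantrone and 3 for p-benzoquinone, and the higher ones 1 with genistein, 1 with mitoxantrone and 4 for p-benzoquinone. Merged regions in 3 or more lists made up 0.510% with an overlap of 50% of the shorter region and 0.643% at a minimum of 4. The cause of these changes was not tested. No paired analysis was possible because each list pools its libraries and carries no replicate columns; for the same reason no replicate could be left out, and library parts stood in. Depth limits are unknown, and genes with under 10 regions cannot be told from the mean unless far from it.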
